A study of Drosophila melanogaster with 2 samples.

Results

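The gap genes and head gap genes of Drosophila melanogaster were examined for chromatin bound by Pumilio (Pum), a protein best known for binding the 3' untranslated regions of mRNAs and repressing their translation. The set held 10 genes chosen by name, out of 13968 annotated protein-coding genes: Kr, kni, knrl, gt, tll, hkb, cnc, oc, ems and btd. A row of a peak list was assigned to one of these genes when its summit lay inside the annotated gene, or when the annotated transcript start nearest to the summit belonged to that gene. ChIP-seq had been done with an antibody to GFP on whole embryos of mixed sex, aged 0 to 24 h, of the strain Pum-MiMIC-GFP, which carries an eGFP exon inserted in an intron of pum so that the pum gene itself encodes a tagged Pum. The only group held 2 biological replicates, numbered 2 and 3, and no group was available for comparison. All embryonic stages and tissues were mixed in each library, so the cells that transcribe a gap gene could not be told apart from those that do not. Control precipitations were not analysed here.

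Gap genes encode transcription factors that are switched on in broad bands of the early embryo by maternal factors and then set the stripes of the pair-rule genes. Kr, kni and gt pattern the trunk, and knrl is a close relative of kni. The terminal gap genes tll and hkb act at the poles, downstream of the receptor Torso. The head gap genes oc, ems and btd specify head segments, and cnc specifies the mandibular segment and part of the labrum. Several of these genes are used again later, oc and ems in the brain for example, and 1 isoform class of cnc encodes the fly relative of the vertebrate stress factor Nrf2.

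The authors' optimal list, made with a threshold of reproducibility, equals the 3970 strongest rows of the list pooled over both replicates. A summit within 100 bp in both replicate lists was found for 94.3% of its rows. Of the genes of the set, oc, ems and cnc had rows in the optimal list. Each had 2 rows, and the 6 summits are shown as 201 bases of the plus strand of dm6 (RefSeq release 6 assembly) centred on the summit, because every statement on optimal rows below rests on them. Capitals mark the Pum recognition sequence TGTANATA, read as DNA, and the DRE, TATCGATA, which is the site of the factor Dref. These were the matches found among 5 motifs searched on both strands.
oc, downstream (chrX:8627269-8627469): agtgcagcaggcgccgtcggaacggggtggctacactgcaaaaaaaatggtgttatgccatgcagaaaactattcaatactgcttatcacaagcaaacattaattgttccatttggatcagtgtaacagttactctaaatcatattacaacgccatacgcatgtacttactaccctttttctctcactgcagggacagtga
oc, upstream (chrX:8656636-8656836): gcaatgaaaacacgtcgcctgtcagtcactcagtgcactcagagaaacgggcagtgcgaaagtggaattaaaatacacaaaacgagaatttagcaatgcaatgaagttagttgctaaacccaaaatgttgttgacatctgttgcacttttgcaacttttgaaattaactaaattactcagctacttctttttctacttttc
ems, stronger (chr3R:13914831-13915031): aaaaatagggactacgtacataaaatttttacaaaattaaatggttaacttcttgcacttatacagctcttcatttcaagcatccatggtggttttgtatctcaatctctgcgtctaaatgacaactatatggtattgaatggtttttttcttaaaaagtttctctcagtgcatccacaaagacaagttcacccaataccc
ems, weaker (chr3R:13915785-13915985): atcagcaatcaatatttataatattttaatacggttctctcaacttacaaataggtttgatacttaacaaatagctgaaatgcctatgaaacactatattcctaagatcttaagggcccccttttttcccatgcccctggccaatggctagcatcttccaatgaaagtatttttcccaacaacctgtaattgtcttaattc
cnc, intron (chr3R:23211886-23212086): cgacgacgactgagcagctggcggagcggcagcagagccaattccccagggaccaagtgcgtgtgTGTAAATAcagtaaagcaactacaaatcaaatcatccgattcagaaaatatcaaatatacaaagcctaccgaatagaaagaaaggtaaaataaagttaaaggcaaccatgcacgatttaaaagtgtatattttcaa
cnc, promoter (chr3R:23190011-23190211): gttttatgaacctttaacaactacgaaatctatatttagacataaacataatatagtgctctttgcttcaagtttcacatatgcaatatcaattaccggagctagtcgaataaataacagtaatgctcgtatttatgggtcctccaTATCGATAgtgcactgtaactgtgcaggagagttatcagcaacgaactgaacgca

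Optimal rows were assigned to 3 of the 10 genes (95% Wilson interval for the share 10.8 to 60.3%), against 20.9% of all protein-coding genes. In the promoter, taken as any base within 500 bp of an annotated start, 1 of the 10 had an optimal row, namely cnc, against 18.7% of protein-coding genes. Inside the gene, cnc was again the 1 gene with an optimal row, against 10.4%. The interval covers counting error over genes only. It is wide, the genes were chosen by name, and it was not used as a test against the share over all genes. The 6 rows fell into 4 intergenic, 1 intronic and 1 promoter row. Over the whole optimal list, 13.0% of rows were intergenic, 32.4% intronic and 52.5% in promoters. The sequence assigned to the 10 genes was itself 48.4% intergenic and 7.38% promoter, against 27.2% and 13.6% of the 6 chromosome arms with rows.

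All 6 rows belonged to head genes. The 4 head genes had 139 kb of assigned sequence, the 4 trunk genes had 102 kb and 0 optimal rows, and the 2 terminal genes had 30.8 kb and 0. This difference between head, trunk and terminal genes was noticed in the data and was not tested. The signal used here is the authors' own value for a row, and it ranks rows within 1 list. The 6 rows had a median signal of 196, against 134 over all 3970 optimal rows and 120 over the 518 intergenic ones. Each of the 6 had the highest −log10 q-value of the list, 3.89, as did 97.5% of all optimal rows, so the rows were ranked by signal.

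**Figure D1:**
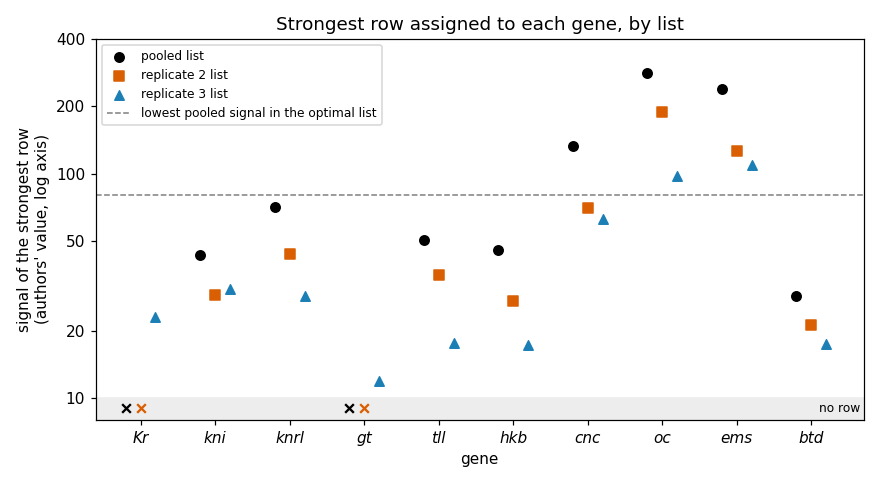
Signal of the strongest row assigned to each gene (log axis) in the pooled list and in the list of each replicate; crosses in the grey band mark genes with no row, and the dashed line is the lowest pooled signal in the optimal list, 80.4. The pooled values of oc, ems and cnc lie above that line, those of the other 5 genes with a pooled row lie below it, and Kr and gt have no pooled row.

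The strongest rows of the set flanked oc (FBgn0004102, orthodenticle, a homeodomain factor of the anterior head; X, 8630159 to 8650681, minus strand). The downstream summit lay at 8627369 on X, 2.79 kb past the annotated end of the gene and 15807 bp from its nearest start. Its pooled signal was 283 (rank 552), and its signals were 190 for replicate 2 (rank 440) and 87.9 for replicate 3 (rank 1016). The upstream summit lay at 8656736, 6055 bp before the most upstream oc start, with a pooled signal of 248 (rank 720), against 154 for replicate 2 (rank 650) and 97.7 for replicate 3 (rank 836). The downstream row thus ranked above the upstream one in replicate 2 and below it in replicate 3. Both rows were narrow, at 180 and 178 bp, whereas 75.9% of optimal rows were 404 bp wide and 9.14% were no wider than 180 bp. Narrower rows were the stronger ones in the list as a whole, with a median signal of 298 for rows under 404 bp and 116 for those of 404 bp. The matching oc rows were 187 and 152 bp wide in replicate 2. In replicate 3 both were 410 bp wide, so the narrow width was not seen there. Among the 518 intergenic optimal rows, the oc rows ranked 55 and 70. The nearest starts of other genes were those of Caf1-180, which encodes a subunit of a chromatin assembly factor, 21.1 kb from the downstream summit, and Rubicon, 20.3 kb from the upstream one. A further 5 pooled rows were assigned to oc, with signals from 23.3 to 45.4, among them 1 in its promoter (30.7).

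The rows of ems (FBgn0000576, empty spiracles, a homeodomain factor of the head and of the filzkörper; 3R, 13901853 to 13904620, plus strand) lay close together downstream of the gene. The stronger summit, at 13914931 on 3R, was 10.3 kb past the annotated end of the gene. It had a pooled signal of 239 (rank 770), with 127 for replicate 2 (rank 939) and 110 for replicate 3 (rank 667). The weaker summit, at 13915885 and 954 bp further on, had a pooled signal of 153 (rank 1637), with 74.4 for replicate 2 (rank 2057) and 76.1 for replicate 3 (rank 1313). The stronger row kept its place above the weaker one in each of the 3 lists. The nearest starts of other genes were 28.5 kb away for Art9, on the far side, and 40.0 kb away for E5, a homeobox gene related to ems, on the other side of ems. The pooled list held 8 more rows for ems, with signals from 24.5 to 55.8. They lay on both sides of the gene, except 1 in its coding sequence, with a signal of 35.1. The ems promoter had no row in the pooled list or in replicate 2, and 1 in replicate 3.

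The rows of cnc (FBgn0262975, cap-n-collar, a basic leucine zipper factor; 3R, 23185580 to 23226711, minus strand) both lay inside the gene, which has 10 annotated starts. The intronic summit, at 23211986 on 3R, was 2571 bp downstream of the start at 23214557, that of transcript cnc-RL. Its pooled signal was 133 (rank 2014), and its signals were 70.0 for replicate 2 (rank 2238) and 62.9 for replicate 3 (rank 1818). The promoter summit, at 23190111, was 308 bp downstream of the start at 23190419, that of transcript cnc-RE. It had a pooled signal of 123 (rank 2247), with 70.3 for replicate 2 (rank 2224) and 50.4 for replicate 3 (rank 2674). No start of another gene lay within 500 bp of either summit, but the start of fzo, a mitofusin gene inside the span of cnc, was 7952 bp from the intronic one. The rows of cnc were the weakest of the 3 genes in the pooled list and in each replicate.

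Replicate 3 held more rows at cnc than replicate 2, at 21 against 9, and 6 against 2 of them in cnc promoters. More promoter rows in replicate 3 were not particular to cnc. Promoters held 32.2% of all rows in replicate 3 and 23.8% in replicate 2, and the whole gene set had 13 promoter rows against 4. Besides the optimal rows of cnc, 1 more reached the 3970 strongest rows of replicate 3, an intronic one at 23225333. It ranked 2518 in replicate 3 with a signal of 52.3. The nearest replicate 2 summit was 174 bp away and ranked 7346, and the pooled row there had a signal of 66.6, below the optimal list. A weaker pooled row, at 23228880, was nearest to a start of cnc but lay in the 3' UTR of its neighbour CG4467. It had 63.9 pooled, 33.7 for replicate 2 and 31.4 for replicate 3.

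The remaining head gene, btd (FBgn0000233, buttondead, a zinc-finger factor of the Sp family; X, 9694186 to 9697558), had 2 pooled rows. Their signals, 28.7 (rank 17908) and 28.0 (rank 18737), lay between the lowest value of the list, 23.2, and its median, 33.8. The gene had 4 rows in replicate 2, the strongest at 21.1 (rank 12385), and 1 in replicate 3, in the promoter, at 17.4 (rank 14387). None of the pooled btd summits was found within 100 bp in replicate 3. The nearest optimal summit was 6.34 kb from the btd start, at 9687842 on X, in the promoter of lncRNA:CR42657.

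**Figure D2:**
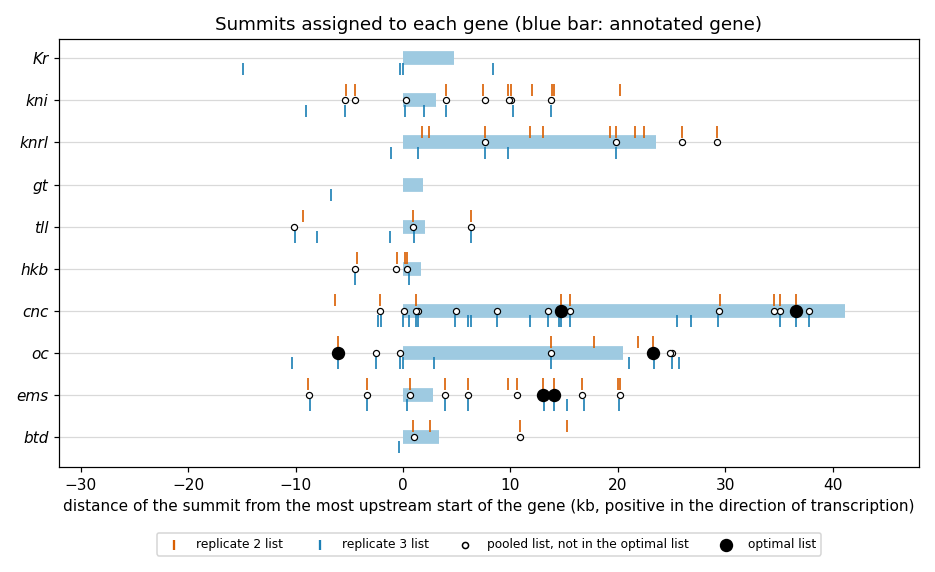
Summits assigned to each gene, by distance in kb from the most upstream start and oriented in the direction of transcription; blue bars are the annotated genes, large filled circles optimal rows, open circles other pooled rows, and orange and blue ticks the rows of replicates 2 and 3. The optimal rows of oc and ems lie outside the genes and those of cnc inside, and Kr and gt have ticks of replicate 3 alone.

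Among the trunk genes, knrl (FBgn0001323, knirps-like, a nuclear receptor family factor; 3L, 20597141 to 20620659) came closest to the optimal list. Its strongest row had a summit in an intron at 20613057 on 3L, 7602 bp downstream of the start. The pooled signal was 71.4 (rank 4619), with 44.0 for replicate 2 (rank 4007) and 28.6 for replicate 3 (rank 6323). The lowest optimal row had 80.4, and the next knrl row, also intronic, had 60.2 pooled, 30.4 for replicate 2 and 24.3 for replicate 3. The neighbouring relative kni (FBgn0001320, knirps; 3L, 20692330 to 20695378) had 8 pooled rows, none above 43.5. Its promoter row had a signal of 31.2 in the pooled list and 30.5 in replicate 3 (rank 5740), and had no summit within 100 bp in replicate 2. The nearest optimal summit was 16.2 kb from a kni start and 10.2 kb from that of knrl.

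The lists held few rows at Kr and gt. Kr (FBgn0001325, Krüppel, a zinc-finger repressor; 2R, 25226611 to 25231394, inside the span of CG9380) had 0 rows in the pooled list and 0 in replicate 2. In replicate 3 it had 4, the strongest at 22.9 (rank 8960), 14858 bp upstream, and the next at 22.5 (rank 9229), 270 bp upstream of the start. For gt (FBgn0001150, giant, a basic leucine zipper repressor; X, 2427113 to 2428967) there was 1 row in replicate 3, intergenic, with a signal of 11.9 (rank 26831), and 0 in the other lists. The nearest optimal summit was 59.2 kb from the Kr start and 39.8 kb from the gt start, the largest distances among the 10 genes. Over all protein-coding genes the median distance was 7.90 kb, and over the 10 genes it was 12.8 kb.

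Of the terminal genes, tll (FBgn0003720, tailless, a nuclear receptor repressor; 3R, 30852315 to 30854400) had 3 pooled rows. The strongest, 6286 bp downstream of the start, had 50.5 pooled, 29.1 for replicate 2 and 17.6 for replicate 3. A second row, in the coding sequence, had 45.1 pooled, 35.4 in replicate 2 (rank 5188) and 11.6 in replicate 3 (rank 28049). Replicate 3 thus placed this row near the bottom of its list. For hkb (FBgn0261434, huckebein, a zinc-finger factor; 3R, 4345015 to 4346646) the strongest pooled row lay in the promoter, 360 bp downstream of the start, with a signal of 45.9. It had 27.2 in replicate 2 (rank 7620), and replicate 3 had no summit within 100 bp. Replicate 3 did hold a row that overlapped it, with a summit 529 bp downstream of the start and a signal of 17.3 (rank 14514). The nearest optimal summits were 34.9 kb away for tll and 12.5 kb away for hkb.

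The 10 genes had long assigned sequence, and their rows were also counted per length. The sequence inside a gene or nearest to its starts had a median of 29.6 kb for the 10 genes, from 9.36 kb at gt to 47.8 kb at cnc, and of 4.76 kb for all protein-coding genes. In this sequence the optimal list had 2.21 rows per 100 kb (exact Poisson 95% interval 0.810 to 4.81, counting error only), against 2.97 over the 6 arms. The pooled list had 19.1 (14.3 to 25.1) against 19.6, replicate 2 had 21.3 (16.2 to 27.6) against 22.4, and replicate 3 had 24.7 (19.1 to 31.3) against 22.4. The intervals take rows as independent, but rows can lie close together, as the 2 optimal ems summits did, 954 bp apart. The 4 lists also come from the same 2 libraries, so the intervals are not separate checks, and no test was made. Among the 3 genes with optimal rows the density was 5.84 per 100 kb at ems, 5.11 at oc and 4.18 at cnc. These genes were picked because they have optimal rows, so their densities cannot be compared with the value over the arms. The unselected set had the 2.21 given above. Having 2 or more optimal rows, as ems, oc and cnc did, was seen in 705 protein-coding genes. That was 5.05% of all, but only 2918 genes had any optimal row assigned. The assigned sequence of ems, oc and cnc was also long, from 34.3 to 47.8 kb.

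**Figure D3:**
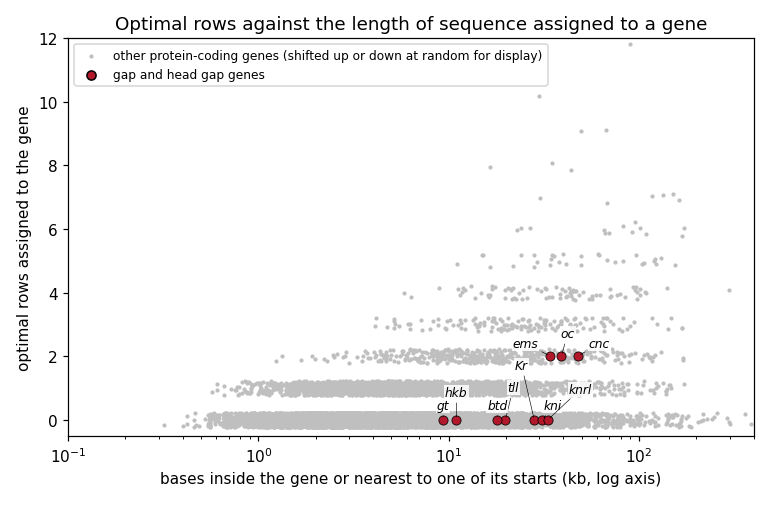
Number of optimal rows assigned to a gene against the length of sequence inside the gene or nearest to its starts (kb, log axis), with the 10 gap and head gap genes in red, other protein-coding genes in grey and 10 genes outside the axes. The red points lie towards long sequence, from 9.36 to 47.8 kb, with 2 rows at ems, oc and cnc and 0 at the others.

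In the pooled list 8 of the 10 genes had a row, against 66.9% of protein-coding genes, and 4 had one in the promoter, against 48.3%. A row inside the gene was found for 8 of the 10 with the replicates pooled (46.3% of protein-coding genes), for 7 with replicate 2 (49.9%) and for 8 with replicate 3 (49.6%). Gene length was not matched. The 10 genes ran from 1632 bp (hkb) to 41132 bp (cnc), against a median of 2164.5 bp over protein-coding genes. The pooled list and the replicate lists hold background regions as well as peaks, so a row in them is not by itself a binding site. The 10 genes had 52 pooled rows, of which 46 were below the optimal list. Those 46 had a median signal of 37.1, against 31.3 over all 22305 pooled rows below the optimal list. By place, 28 of the 52 were intergenic, 10 intronic, 8 in promoters, 5 in coding sequence and 1 in a 3' UTR. Over all pooled rows the shares were, in the same order, 16.6%, 33.5%, 30.0%, 15.9% and 2.02%. The sequence assigned to the 10 genes was itself 48.4% intergenic and 7.38% promoter. In replicate 2 a row was assigned to 8 genes (70.9% of protein-coding genes) and in replicate 3 to all 10 (68.1%). Promoter rows were found at 2 of the 10 in replicate 2, hkb and cnc, against 45.4% of protein-coding genes. In replicate 3 they were found at 6, namely Kr, kni, cnc, oc, ems and btd, against 53.2%.

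The replicates shared the 6 optimal rows and fewer of the weaker ones. Both replicates held each of the 6, within 100 bp, in the 3970 strongest rows of their own lists, as did 68.8% of all optimal rows. The optimal list was itself cut on these libraries, so this is a description. Of the 46 weaker pooled rows, 18 had a summit in both whole replicate lists, against 29.3% of all pooled rows below the optimal list. Of the 58 rows of replicate 2 at these genes, 22 had a summit within 100 bp in replicate 3, and 22 of the 67 rows of replicate 3 had one in replicate 2. Over the whole lists this share was 33.8% in either direction. Among the 3970 strongest rows, replicate 2 held 6 at these genes and replicate 3 held 7, all at oc, ems and cnc.

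**Figure D4:**
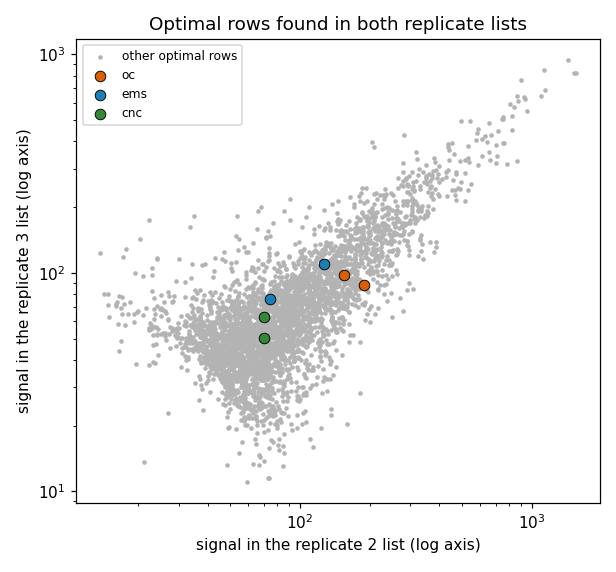
Signal of the optimal rows found in both replicate lists, replicate 2 against replicate 3 (both axes log), with the rows of oc, ems and cnc coloured and all others in grey. The 6 coloured points lie within the grey cloud, from 70.0 to 190 in replicate 2 and from 50.4 to 110 in replicate 3.

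Of the 5 motifs, the Pum sequence was found at 1 of the 6 summits and the DRE at 1, both at cnc. The Pum match lay at the intronic summit, at 23211951 to 23211958 on 3R. It was on the plus strand, whereas cnc lies on the minus strand. In a window of the same length, 9.27% of all optimal rows and 5.89% of all protein-coding starts held this motif. The DRE match lay at the promoter summit, at 23190157 to 23190164, between the summit and the cnc-RE start, and the motif was held by 4.56% of optimal rows and 6.44% of starts. The sites of the early activators Zelda (CAGGTAG) and Bicoid (TAATCC) and the GA repeat of Trl (GAGAGAG) had 0 matches in the 6 windows. Over all optimal rows these 3 were found at 0.806%, 6.10% and 3.22%, and over starts at 1.08%, 6.11% and 4.68%. The oc and ems windows, all intergenic, thus held none of the 5. Over the 518 intergenic optimal rows the shares were 10.4% for Pum, 0.579% for the DRE and 0.965% for Zelda. They were 4.83% for Bicoid and 2.12% for Trl. With shares this low and so few windows, the absence of a match says little. Motifs did not overlap each other in these windows, and a match is a description of the letters, not of binding. GC content ran from 33.3% at the stronger ems summit to 42.3% at the downstream oc summit, with a median of 36.3% over all optimal rows.

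Other genes of the segmentation pathway were counted in the same way against the 20.9% of protein-coding genes with an assigned optimal row. Maternal and terminal inputs had one at 4 of 8 genes. The anterior determinant bcd led with 277 at a summit 196 bp upstream of its start, followed by tsl (136), which encodes a factor needed for Torso signalling, the activator gene zld (118) and cad (81.6), which encodes a posterior homeodomain factor. A further gene, nanos, had an optimal row within 500 bp of its start that was nearer to the start of another gene. Other gap-type genes had one at 3 of 6, with kn at 115, croc at 98.1 and D at 86.3, while hb, nub and pdm2 had 0. Pair-rule genes had one at 4 of 9, led by slp2 with 608 (rank 98), slp1 with 189, odd with 136 and opa with 129, while eve, ftz, hry, run and prd had 0. The values given are those of the strongest row of each gene, and the 4 pair-rule genes had 6 optimal rows in all. The strongest rows of these 4 genes and of croc and D were intergenic, from 2189 bp at slp1 to 11997 bp at croc from the nearest start of the gene. An optimal row in the promoter was found at 0 of the 9 pair-rule genes and 0 of the 6 other gap-type genes, against 18.7% of protein-coding genes, and at 2 of the 8 maternal and terminal inputs. With so few genes these counts were not tested. For the maternal and terminal inputs the median assigned sequence was 5.72 kb and the density 6.36 optimal rows per 100 kb. The pair-rule genes had 13.0 kb and 4.70, and the other gap-type genes 31.2 kb and 2.74. All protein-coding genes had a median of 4.76 kb. The density was 2.97 over the 6 arms and 2.21 for the gap and head gap genes. These densities were not tested against each other.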

How the data were processed

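The data were 2 ChIP-seq libraries of 1 group, with no untagged control analysed here. The files used were 4 dm6 lists, 1 per replicate (30000 rows each), 1 pooled (26275) and 1 optimal (3970). The signal (column 7) and the −log10 of the q-value (column 9) were deposited by the authors. Per the deposited file records, the replicate and pooled lists hold peaks and background as input for a test of reproducibility, and the optimal list was derived from them; it equals the 3970 strongest pooled rows. For the peak caller, its settings and the threshold, nothing is stated in the sources used. Depth is unknown, so precision cannot be set from it, and the intervals hold counting error alone. The dm3 lists were not used.

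Summits (column 2 plus column 10, printed 1-based) were placed on Ensembl release 115 gene models (BDGP6.54, dm6 coordinates) without transposable elements. Arm lengths of the RefSeq release 6 genome held all rows. A summit in a promoter was counted as such first, then by UTR, coding sequence, other exon or intron, and otherwise as intergenic. All rows were counted. The genes, lists and motifs were chosen with earlier results of these data known, so counts are given beside the same share over all protein-coding genes and no test was made over the set. All 10 genes were named, as were genes whose start or span met an optimal summit and up to 4 genes per other list with the strongest optimal row; flanking genes and the genes nearest to a missing row were named after their values were seen, as were those with 0 rows. The symbol h was matched to hry through a synonym. Assignment was tested on planted rows. Python 3.11.15, numpy 2.4.6, pandas 2.3.3, Biopython 1.88 and matplotlib 3.10.9 were used. Alternatives covered promoter width, merging of summits, list depth, each replicate alone, the set of starts, match distance and motif window.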

Additional observations from a re-analysis of the deposited data

How the results depend on the processing

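The counts of 3 genes and 6 optimal rows kept within 1.5 times of these values in every alternative run on them, with 2 to 3 genes and 4 to 7 rows, and oc and ems were among the genes each time. Using the stronger 50% of optimal rows left oc and ems, with 0 genes that had a promoter row, 0 with a row inside the gene and a median signal of 243 in place of 196. A promoter width of 250 bp on either side also gave 0 genes with a promoter row, since the cnc summit lies 308 bp from the start. The DRE match ended with windows of 50 bp (0 rows). With the strongest 3970 rows of 1 replicate in place of the optimal list, the same 3 genes had rows, and the median signal was 76.1 without replicate 2 and 101 without replicate 3, which are values of other lists and not comparable with 196. The strongest signal then lay between 62.9 and 70.3 for cnc, 97.7 and 190 for oc, and 110 and 127 for ems. Matching within 50 bp found 5 of the 6 rows in both replicates. No paired analysis was possible because the study has 1 group. Unknown read depth limits what a missing row can show.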
